A study of Mus musculus with 8 samples.

Results

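Lipid-associated macrophage genes are markers of the lipid-laden macrophages that gather around dying adipocytes in obese fat. The list examined here holds 10 genes, Trem2, Gpnmb, Mmp12, Lgals3, Spp1, Itgax, Cd9, Tyrobp, Tm4sf19 and Cd63. They were chosen by gene name with results of these same arrays already known, and where a gene had several probe sets the brightest on average over the 8 arrays was taken. The GC+ and GC- values of the members are therefore a description, and nothing is supported with them. Of the 10 genes, 9 had a probe set carrying that 1 gene symbol, and all 9 were among the 14787 of 22180 genes bright enough to be tested. Spp1, which encodes osteopontin, had no such probe set and was not analysed here.

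The tissue was white fat, the left pad beside the epididymis, from 8 male C57BL/6 mice. RNA of each mouse was hybridised to its own Affymetrix Mouse Gene 2.0 ST GeneChip. Both groups were weaned at 3 weeks of age onto the same high-fat diet, in which fat rich in n-6 fatty acids gave 45% of the energy, so no lean or low-fat group was compared. The 4 GC+ mice received prednisolone, a synthetic glucocorticoid, at 40 mg/kg per square metre daily in sweet potato puree from 6 weeks of age for 4 weeks. The 4 GC- mice received the puree without drug, and fat was taken from both groups at 10 weeks of age. Values are on the log2 scale after robust multiarray averaging, mice carry the replicate number of their label, and a difference is the GC+ minus the GC- mean, so that 1 is a doubling. The number of arrays limits the precision, and signals of different probe sets are not compared.

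TREM2 is a surface receptor of macrophages that binds lipids and lipoproteins, and it signals through the adaptor TYROBP, also called DAP12, which recruits the kinase SYK. Macrophages that take up lipid from dying fat cells through this route turn on genes of lysosomes, lipid hydrolysis and matrix degradation. Several of the listed genes are not confined to these cells. ITGAX (CD11c) is also carried by dendritic cells, and LGALS3, CD9 and CD63 are made by many cell types, among them epithelia and adipocyte precursors.

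The 250 bases before the annotated start were read for the 4 members with the largest differences, because their group means differed most. They come from RefSeq on GRCm38.p6, which lists a pair of starts for Mmp12. Capitals mark matches, on either strand, to the letters TGACTCA (AP-1), CACGTG or CATGTG (E-boxes of the kind MITF and TFEB bind), GAGGAAG (core of PU.1 sites) and ACANNNTGT (the inner part of the palindrome bound by the glucocorticoid receptor).
Tm4sf19, chr16:32400256-32400505, plus strand: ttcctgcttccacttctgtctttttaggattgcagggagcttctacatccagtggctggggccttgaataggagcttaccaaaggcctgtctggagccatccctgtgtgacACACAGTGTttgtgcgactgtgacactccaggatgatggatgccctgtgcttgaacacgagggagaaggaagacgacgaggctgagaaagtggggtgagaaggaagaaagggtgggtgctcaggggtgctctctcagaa
Gpnmb, chr6:49036268-49036517, plus strand: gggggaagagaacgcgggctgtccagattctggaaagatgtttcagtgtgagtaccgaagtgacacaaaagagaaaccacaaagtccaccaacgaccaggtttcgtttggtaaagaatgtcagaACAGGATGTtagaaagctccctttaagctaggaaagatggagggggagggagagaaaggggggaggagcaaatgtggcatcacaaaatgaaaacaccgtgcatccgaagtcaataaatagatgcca
Mmp12 start 1, chr9:7344147-7344396, plus strand: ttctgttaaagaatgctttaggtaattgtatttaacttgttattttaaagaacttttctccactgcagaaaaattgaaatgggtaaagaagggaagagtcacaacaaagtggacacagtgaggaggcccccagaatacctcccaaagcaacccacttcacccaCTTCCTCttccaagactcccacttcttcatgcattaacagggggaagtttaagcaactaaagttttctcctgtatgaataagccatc
Mmp12 start 2, chr9:7347124-7347373, plus strand: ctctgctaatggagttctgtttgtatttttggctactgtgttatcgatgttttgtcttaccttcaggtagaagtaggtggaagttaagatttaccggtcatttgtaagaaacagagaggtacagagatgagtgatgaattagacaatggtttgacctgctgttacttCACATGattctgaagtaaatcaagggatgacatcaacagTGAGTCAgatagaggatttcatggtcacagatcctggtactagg
Trem2, chr17:48346151-48346400, plus strand: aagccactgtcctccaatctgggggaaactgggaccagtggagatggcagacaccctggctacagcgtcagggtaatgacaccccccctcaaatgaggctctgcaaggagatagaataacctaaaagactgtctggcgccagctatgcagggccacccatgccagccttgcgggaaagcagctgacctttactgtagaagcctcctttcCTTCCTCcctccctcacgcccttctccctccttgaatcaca
The receptor letters ACANNNTGT matched at -139 relative to the start of Tm4sf19, at -126 in Gpnmb and at -164 in Itgax, and 5.84% of 32851 windows of this length over all RefSeq starts hold them. Trem2 held the PU.1 letters at -41, as 10.6% of windows do, and Mmp12 held them at -87 from start 1. Start 2 of Mmp12 held the AP-1 letters at -44 (4.46% of windows) and CATGTG at -83 (12.3%). Of the other members, Itgax held the AP-1 letters at -56, Cd9 held CATGTG at -38, and the PU.1 letters were at -60 in Cd63 and at -113 from start 1 of Spp1. CACGTG, in 6.02% of windows, matched none of the windows printed. The RefSeq table held a start for 9 of the 10 listed genes. A match is a description of letters and not evidence that a factor binds there.

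All 9 measured members had a higher mean in GC+ than in GC- mice, with differences from 0.10 to 1.08 and a median of 0.63. Across all tested genes 54.6% had a higher GC+ mean and the median difference was 0.018. With limma, 0 of the 9 passed an adjusted p of 0.05, against 0% of all tested genes, and 5 had an unadjusted p under 0.05 in this direction, against 3.37%. The GC+ and GC- values did not overlap in 2 members, Tm4sf19 and Lgals3, against 1.81% of tested genes apart in this direction. Because the members were chosen with this comparison known, nothing is read from these counts. The arrays hold RNA of whole tissue, in which a change in the number of macrophages and a change in RNA per macrophage cannot be told apart.

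**Figure D1:**
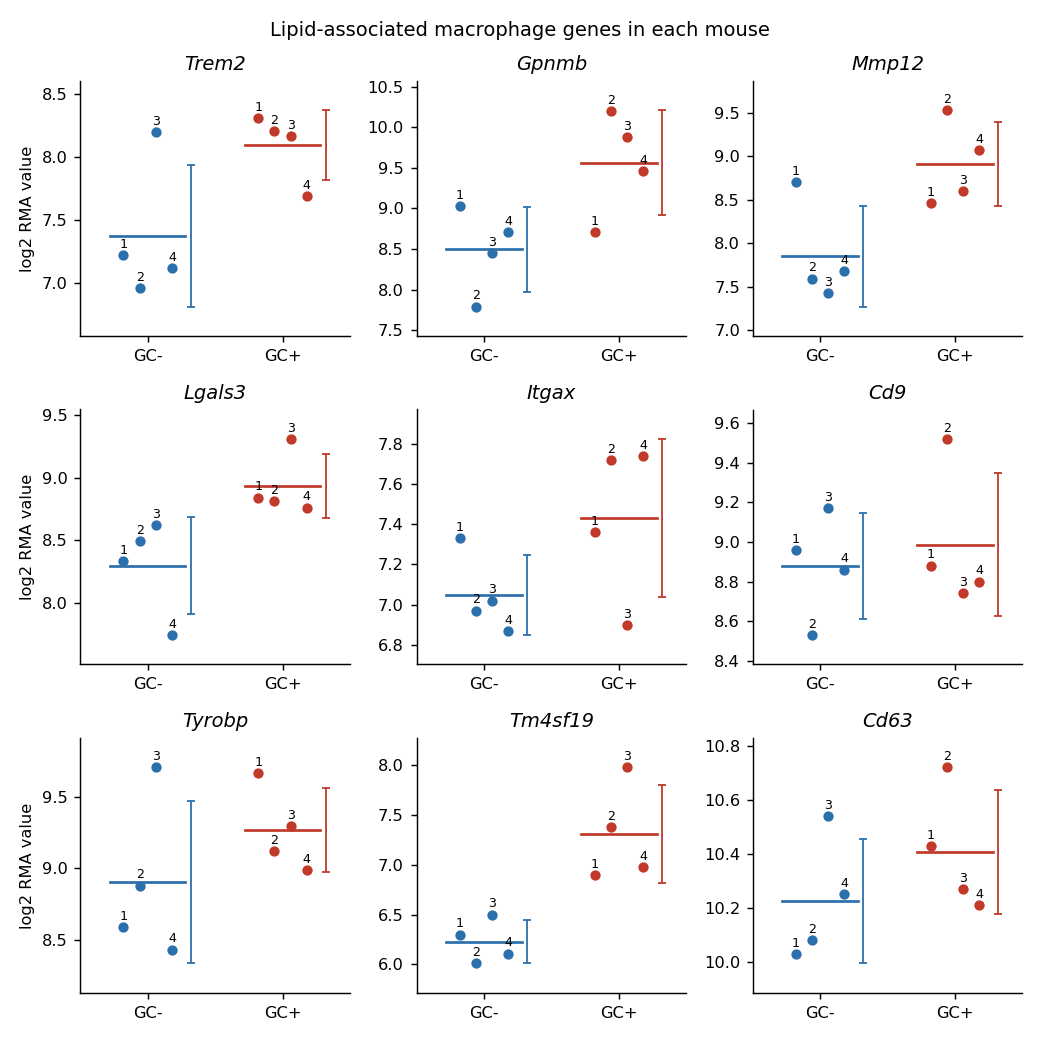
Log2 expression values (vertical axes, a scale of its own for each gene) of the 9 measured members in GC- (blue) and GC+ (red) mice. Each point is 1 mouse with its replicate number, horizontal lines are group means and bars are SD (n = 4). Tm4sf19 and Lgals3 show no overlap between the groups. GC- mouse 3 lies within or above the GC+ values for Trem2, Tyrobp, Itgax, Cd9 and Cd63.

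The receptor Trem2 had a larger average difference than its adaptor Tyrobp, and a test between them was not made. Trem2 read 8.31, 8.21, 8.17 and 7.69 in GC+ mice 1 to 4 and 7.22, 6.96, 8.20 and 7.12 in GC- mice 1 to 4. Its means were 8.09 ± 0.27 and 7.37 ± 0.56 (SD, n = 4), a difference of 0.72 ± 0.27 (SE), or 1.65-fold. GC- mouse 3 alone kept the groups from separating: the other 3 GC- mice lay below every GC+ mouse. The Trem2 difference was 0.99 without GC- mouse 3, 0.58 without GC- mouse 2 and 0.63 without GC- mouse 4. Tyrobp read 9.67, 9.12, 9.30 and 8.99 in GC+ mice and 8.59, 8.88, 9.71 and 8.43 in GC- mice, a difference of 0.37 ± 0.28. The highest of all 8 values belonged to GC- mouse 3, and no GC+ mouse lay above all GC- mice. The Tyrobp difference was 0.64 without GC- mouse 3, 0.21 without GC- mouse 4 and 0.23 without GC+ mouse 1, so its size depended on single mice.

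The largest differences belonged to genes of lysosome-rich, matrix-degrading or multinucleated macrophages. Tm4sf19, a 4-span membrane protein of the L6 family found in multinucleated macrophages and osteoclasts, read 6.90, 7.38, 7.98 and 6.98 in GC+ mice and 6.30, 6.01, 6.50 and 6.11 in GC- mice. Every GC+ mouse lay above every GC- mouse, and the difference was 1.08 ± 0.24, or 2.11-fold. Gpnmb, a transmembrane glycoprotein of lipid-laden macrophages, read 8.71, 10.20, 9.88 and 9.46 in GC+ mice and 9.03, 7.79, 8.45 and 8.71 in GC- mice. GC+ mouse 1 lay among the GC- mice and the other 3 lay above them all, for a difference of 1.07 ± 0.36. Mmp12, the macrophage metalloelastase, read 8.46, 9.53, 8.60 and 9.07 in GC+ mice and 8.70, 7.59, 7.42 and 7.68 in GC- mice. Here GC- mouse 1 stood apart from its group and above GC+ mice 1 and 3. The difference was 1.07 ± 0.33, or 1.35 without that mouse and 0.86 without GC+ mouse 2.

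Lgals3, the lectin galectin-3, read 8.84, 8.81, 9.31 and 8.76 in GC+ mice and 8.33, 8.49, 8.62 and 7.74 in GC- mice. The groups did not overlap, although GC+ mouse 4 and GC- mouse 3 were close, and the difference was 0.63 ± 0.21, or 1.55-fold. Itgax, the integrin chain CD11c, read 7.36, 7.72, 6.90 and 7.74 in GC+ mice and 7.33, 6.97, 7.02 and 6.87 in GC- mice. GC+ mouse 3, the highest mouse for Lgals3 and Tm4sf19, was the lowest GC+ mouse for Itgax, and the difference was 0.38 ± 0.20.

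The tetraspanins Cd9 and Cd63, membrane organisers of the cell surface and of late endosomes, differed least between the groups. Cd9 read 8.88, 9.52, 8.74 and 8.80 in GC+ mice and 8.96, 8.53, 9.17 and 8.86 in GC- mice, and its difference of 0.10 ± 0.20 was -0.07 without GC+ mouse 2 and -0.01 without GC- mouse 2. A further Cd9 probe set, dimmer on average and not used, read between 5.44 and 5.78 on all arrays. Cd63 read 10.43, 10.72, 10.27 and 10.21 in GC+ mice and 10.03, 10.08, 10.54 and 10.25 in GC- mice. Its difference of 0.19 ± 0.15 was 0.08 without GC+ mouse 2, 0.12 without GC- mouse 1 and 0.29 without GC- mouse 3. In both tetraspanins GC+ mouse 2 was the highest of all 8 mice and GC- mouse 3 the next.

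Transcripts of the epididymis, which lies against this fat pad, were present at very different levels between mice. The score of a marker list is the mean over its tested genes of each value minus that gene's mean over the 8 arrays. For 12 tested epididymis genes it was 3.14 and 1.71 in GC- mice 1 and 4 and 3.70 in GC+ mouse 2, and between -2.63 and 0.25 in the other 5 mice. Gpx5, an epididymal glutathione peroxidase, spanned 4.19 to 13.81. Among the 5 mice of lower score it read 11.27 in GC+ mouse 1, 8.69 in GC- mouse 3 and 4.19 to 4.76 in the rest. Those 5 mice were thus not all free of epididymal transcripts. Without the 3 mice with scores over 1, which leaves 3 GC+ and 2 GC- mice, 7 of 9 members had a higher GC+ mean and the median difference was 0.41. Gpnmb then differed by 1.23, Mmp12 by 1.21, Tm4sf19 by 1.03, Trem2 by 0.48 and Lgals3 by 0.41, while Tyrobp differed by 0.02, Cd9 by -0.04 and Cd63 by -0.00 after rounding. With the score as a covariate over all 8 mice, 9 of 9 were higher and the median was 0.61.

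General macrophage markers separated the mice in another order than the members did. Of 15 tested markers 13 had a higher GC+ mean, with a median difference of 0.26, and 0 passed limma's adjusted threshold or an unadjusted p of 0.05. Adgre1, an adhesion receptor that marks mouse macrophages, differed by 0.45 ± 0.45, the lysosomal glycoprotein Cd68 by 0.60 ± 0.37 and the growth factor receptor Csf1r by 0.24 ± 0.26, with adjusted p from 0.768 to 0.834 in limma. The general macrophage score was 0.52, -0.06, 0.15 and -0.11 in GC+ mice 1 to 4 and -0.58, -0.10, 0.67 and -0.48 in GC- mice 1 to 4. GC- mouse 3 had the highest score and the groups overlapped. The mean score of the 9 members was 0.16, 0.57, 0.34 and 0.18 in GC+ mice and -0.18, -0.53, -0.05 and -0.48 in GC- mice.

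After subtraction of the general macrophage score, the mean of the members was -0.36, 0.63, 0.19 and 0.29 in GC+ mice and 0.40, -0.43, -0.72 and 0.00 in GC- mice. The groups then overlapped, with a difference of 0.37. The subtraction takes the same amount, 0.25, from the difference of every member. The order of the members is therefore that of the differences before it, and nothing further is read from single members. The remaining differences were 0.83 for Tm4sf19, 0.82 each for Gpnmb and Mmp12, 0.47 for Trem2 and 0.38 for Lgals3. They were 0.13 for Itgax, 0.12 for Tyrobp, -0.06 for Cd63 and -0.14 for Cd9. The subtraction treats every marker as moving 1 for 1 with macrophage RNA, which was not tested.

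**Figure D2:**
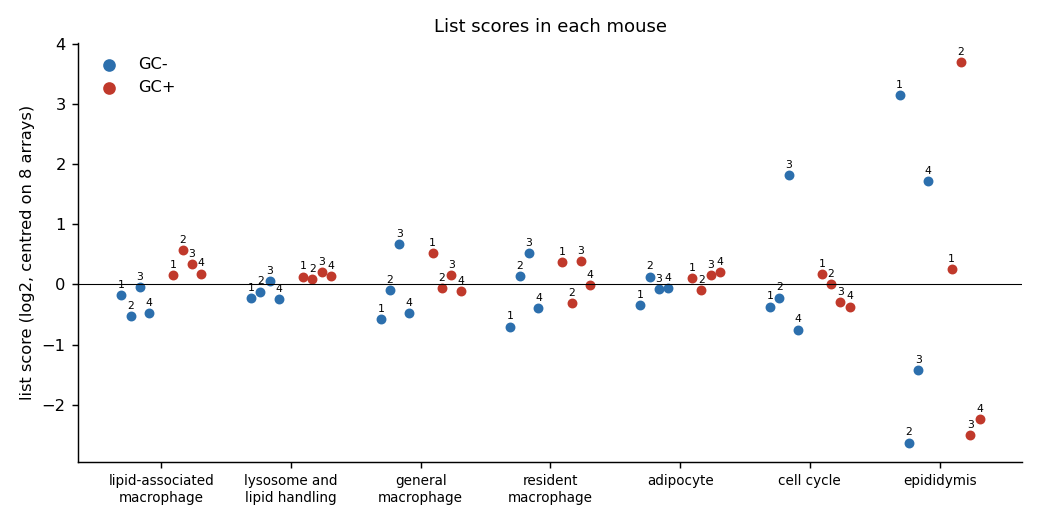
List scores (vertical axis, log2, centred on the mean of the 8 arrays) by gene list (horizontal axis), with 1 point per mouse and its replicate number, GC- in blue and GC+ in red. The lipid-associated macrophage scores run from 0.16 to 0.57 in GC+ and from -0.53 to -0.05 in GC- mice. The lysosome and lipid handling scores are also apart, from 0.09 to 0.20 in GC+ and from -0.24 to 0.05 in GC- mice. The general and resident macrophage, adipocyte, cell cycle and epididymis scores overlap between the groups. The members and lists were chosen with earlier results of these data known, so nothing is read from which scores are apart.

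How members varied among mice of the same group was not used to choose them. Deviations from the group mean were correlated over the 8 mice for all 36 pairs of members, and exact p-values were taken from the 576 permutations within groups, two-sided. Pearson's r ran from -0.59 to 0.86 with a median of 0.19, and 23 pairs were above 0 and 13 below, so the signs were mixed within the groups. After Benjamini-Hochberg adjustment over the pairs 0 of 36 passed, with 2 at an unadjusted exact p under 0.05 for r. The smallest p that 576 permutations can give is 0.0017, and a single pair at that value would not pass the adjustment over 36. No pair can therefore be called related or unrelated at this number of mice. Lgals3 with Tyrobp had an unadjusted exact permutation p of 0.0243 for rho (rho = 0.90, adjusted 0.562, r = 0.62). Trem2 and its adaptor Tyrobp had the highest r, 0.86 (rho = 0.60, exact permutation p = 0.0521 for r and 0.212 for rho, adjusted 0.554 and 0.839), and r was 0.77 without GC- mice 2 and 3. Cd9 and Cd63 followed with 0.83 (rho = 0.60, exact permutation p = 0.0278 and 0.212, adjusted 0.554 and 0.839), which was 0.24 without GC+ mouse 2 and GC- mouse 3 and so rested on those mice. Trem2 with Cd63, the other pair with an unadjusted p under 0.05 for r, had 0.75 (rho = 0.60, exact permutation p = 0.0434 and 0.212, adjusted 0.554 and 0.839), and 0.48 without GC- mice 2 and 3. Neither pair passed after adjustment. The r of Gpnmb with Mmp12 was 0.68 (rho = 0.80, exact permutation p = 0.108 and 0.0625, adjusted 0.554 and 0.562), and 0.67 without GC+ mouse 1 and GC- mouse 2. Tyrobp with Mmp12 gave the lowest value, -0.59 (rho = -0.80, exact permutation p = 0.174 and 0.0625, adjusted 0.625 and 0.562), and -0.75 without GC+ mouse 2 and GC- mouse 1.

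**Figure D3:**
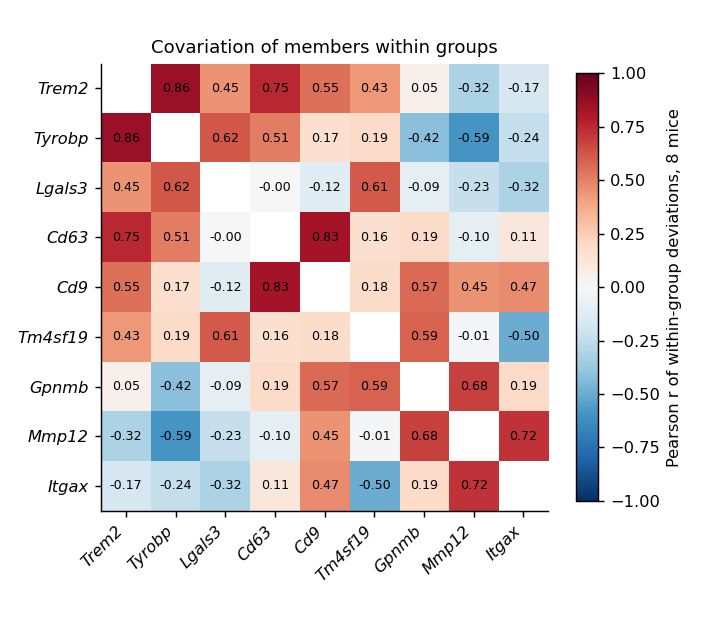
Pearson's r between members (rows and columns) for deviations from the group mean over 8 mice, coloured from blue (-1) to red (1). The values run from -0.59 for Tyrobp with Mmp12 to 0.86 for Trem2 with Tyrobp, and none of the 36 passed the adjusted exact permutation test. The smallest p of that test is 0.0017, at which a single pair alone would not pass.

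Each member was also set against the general macrophage, epididymis and adipocyte scores in the same way, 27 relations in all. None passed after adjustment for r or rho, and 2 had an unadjusted exact p under 0.05 for r. For rho that p was under 0.05 for Tyrobp and Mmp12 with the general macrophage score. Tyrobp, which most myeloid cells express, followed the general macrophage score most closely (r = 0.98, rho = 0.90, exact permutation p = 0.00521 and 0.0243, adjusted 0.141 and 0.328), with r of 0.88 without GC+ mouse 1 and GC- mouse 3. Trem2 had an r of 0.81 with that score (rho = 0.50, exact permutation p = 0.0799 and 0.295, adjusted 0.293 and 0.531), and 0.65 without GC- mice 2 and 3. Mmp12 ran the other way, with -0.71 (rho = -0.90, exact permutation p = 0.0868 and 0.0243, adjusted 0.293 and 0.328), and -0.75 without GC+ mouse 2 and GC- mouse 1. Gpnmb had -0.50 (rho = -0.60, exact permutation p = 0.207 and 0.212, adjusted 0.508 and 0.52), and -0.48 without GC+ mouse 1 and GC- mouse 2. With the epididymis score, Mmp12 had an r of 0.70 (rho = 0.60, exact permutation p = 0.0764 and 0.212, adjusted 0.293 and 0.52), which was -0.14 without GC+ mouse 2 and GC- mouse 1, and Cd9 had 0.70 (rho = 0.70, exact permutation p = 0.0868 and 0.111, adjusted 0.293 and 0.5), which was 0.98 without GC+ mouse 2 and GC- mouse 3. The part of epididymal RNA in the values of Mmp12 and Cd9 was not tested. With the adipocyte score, Cd9 had -0.72 (rho = -0.80, exact permutation p = 0.0399 and 0.0625, adjusted 0.293 and 0.338), and -0.87 without the same pair of mice.

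**Figure D4:**
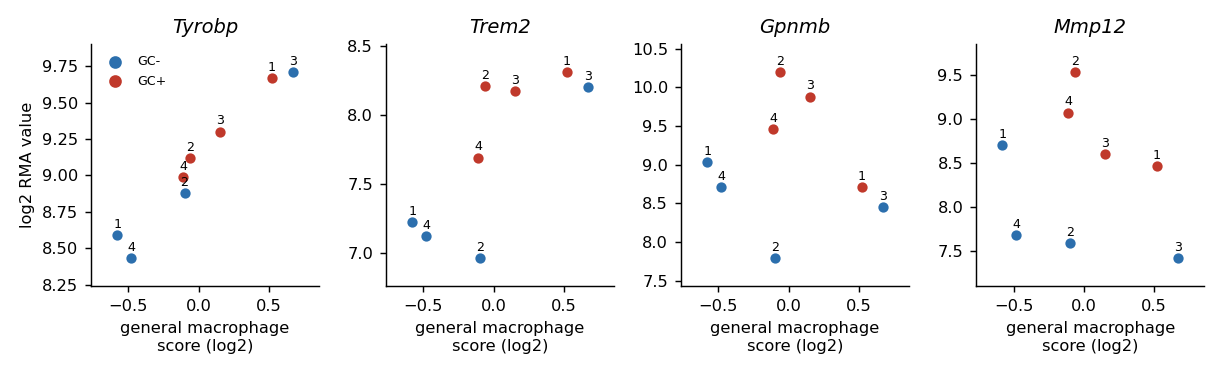
Log2 expression values (vertical axes) of Tyrobp, Trem2, Gpnmb and Mmp12 against the general macrophage score (horizontal axes, log2) in GC- (blue) and GC+ (red) mice, 1 numbered point per mouse. Tyrobp is higher in mice with a higher score, whereas GC- mouse 3, with the highest score of 0.67, has the lowest Mmp12 value of 7.42.

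Of the partner and signalling genes of TREM2 and TYROBP, 15 of 21 tested had a higher and 6 a lower GC+ mean, with a median difference of 0.08, and 0 passed limma's adjusted threshold or an unadjusted p of 0.05. The kinase Syk averaged 8.36 in GC+ and 8.58 in GC- mice, a difference of -0.21 ± 0.22 (limma adjusted p = 0.824), and Hcst, which encodes the adaptor DAP10, differed by 0.08 ± 0.14. Adam10, a protease that sheds TREM2 from the surface, differed by -0.19 ± 0.12, the linker Grb2 by 0.15 ± 0.08 and the signalling scaffold Card9 by -0.11 ± 0.09. Differences in this list ran from -0.21 to 0.35.

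Lysosomal and lipid handling genes of lipid-laden macrophages had a higher GC+ mean in 25 of 29 and a lower one in 4, with a median of 0.23. None passed the adjusted threshold in limma, 9 had an unadjusted p under 0.05, all of them higher in GC+, and 3 were apart between the groups. Over all tested genes 54.6% had a higher GC+ mean. In this direction 3.37% had an unadjusted limma p under 0.05 and 1.81% were apart. The list was chosen with earlier results of these data known, so nothing is read from these counts. Gpr137b, a lysosomal membrane protein, averaged 7.98 ± 0.18 in GC+ and 7.46 ± 0.24 in GC- mice (0.53 ± 0.14, limma adjusted p = 0.768), with values from 7.83 to 8.21 against 7.13 to 7.70. Lipa, the lysosomal acid lipase, averaged 11.07 against 10.51 (0.56 ± 0.19), and Ctsd, cathepsin D, 12.86 against 12.47 (0.38 ± 0.12), with the same adjusted p of 0.768. For Ctsd the 4 GC+ mice ran from 12.76 to 12.97 and the 4 GC- mice from 12.22 to 12.69, without overlap. Adipocytes also express several genes of this list, among them Lpl at 0.03, Fabp4 at 0.05, Cd36 at 0.10 and Plin2 at 0.55, and these differences were named after their values were seen.

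Osteopontin receptors and the partners and a ligand of beta 2 integrins, a list that also holds Cd44 and Icam1, which are not integrins, showed no common direction, with 8 of 13 tested higher, 5 lower and a median of 0.01. Cd44, a receptor for osteopontin and hyaluronan, read 7.85, 7.47, 7.74 and 7.48 in GC+ mice and 6.87, 7.24, 7.60 and 6.54 in GC- mice, a difference of 0.57 ± 0.22 (limma adjusted p = 0.768). Itgb2, the beta chain that pairs with ITGAX, differed by 0.49 ± 0.22 and Itgb3, a chain of the osteopontin receptor, by 0.43 ± 0.21. In Cd44 and Itgb2 GC- mouse 3 lay within the GC+ range and GC- mice 1 and 4 were lowest, as they were for the general macrophage score.

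Other tetraspanins and L6 family genes divided evenly, 6 of 13 higher and 7 lower with a median of -0.01. Tspan4, a tetraspanin of migrating cells, averaged 8.59 ± 0.23 in GC+ and 8.02 ± 0.29 in GC- mice, and its lowest GC+ value of 8.30 lay just above its highest GC- value of 8.25 (0.58 ± 0.17, limma adjusted p = 0.768). Cd151 differed by 0.26 ± 0.11 and Tspan9 by -0.45 ± 0.24. Transcription factors of lipid-laden macrophages had a median of 0.05, with 12 of 18 tested higher and 6 lower. Mitf, which drives lysosomal genes and Gpnmb, averaged 7.80 against 7.57 (0.23 ± 0.17), the myeloid factor Spi1 (PU.1) 8.10 against 7.74 (0.37 ± 0.25) and the oxysterol receptor Nr1h3 (LXR alpha) 8.78 against 8.51 (0.27 ± 0.14), with 0 of 18 past limma's adjusted threshold or an unadjusted p of 0.05. Tfec lay below the brightness limit of 5.82 on average and was not tested, with means of 5.79 and 5.58.

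**Figure D5:**
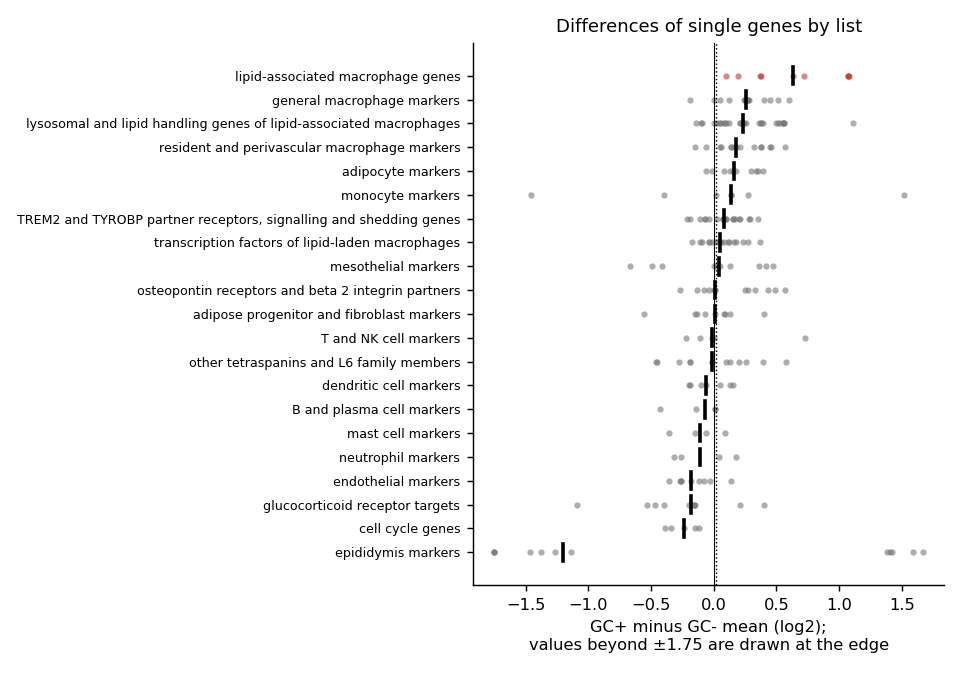
Difference between GC+ and GC- means (horizontal axis, log2) for each tested gene (points) of each list (rows), with the list median as a black bar and the median of all tested genes as a dotted line. The lipid-associated macrophage genes, in red, have a median of 0.63, the general macrophage markers 0.26 and the epididymis markers -1.20. Because the members were chosen with this comparison known, nothing is read from their median beside the others.

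Markers of other cells were read to see what else the tissue held. Adipoq, the adiponectin gene of adipocytes, read from 11.74 to 12.29 on all arrays, and 8 of 10 adipocyte markers had a higher GC+ mean (median 0.16). Resident and perivascular macrophage markers had a median of 0.18 with 13 of 15 higher, Mrc1 at 0.21 ± 0.32 and Lyve1 at 0.18 ± 0.40. Dendritic cell markers, which bear on Itgax, had a median of -0.06 with 3 of 7 higher, and Flt3 differed by -0.06 ± 0.20 and Zbtb46 by 0.15 ± 0.16. Monocyte markers had a median of 0.14 with 5 of 7 higher, and their genes Ccr2 and Ly6c2 differed by 0.14 ± 0.48 and 0.02 ± 0.22. Medians were 0.04 for mesothelial, 0.01 for progenitor, -0.01 for T and NK cell and -0.07 for B and plasma cell markers. They were -0.11 for mast cell, -0.11 for neutrophil and -0.18 for endothelial markers. Nothing is read from these medians beside that of the members, which were chosen with this comparison known. No gene of these lists passed limma's adjusted threshold, as no tested gene did. Fkbp5 and Tsc22d3, genes that glucocorticoids induce in many tissues, differed by -0.40 ± 0.32 and -0.20 ± 0.18, and 2 of 10 glucocorticoid receptor targets had a higher GC+ mean (median -0.18).

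For likeness, the tested genes outside the list were ranked by Pearson's r over the 8 arrays, which gives no test because the best of all genes are picked. The ranked genes most like the mean of the members were Cryz and Dnah1 (r = 0.92 each), the channel gene Panx1 and Ccdc30 (0.91 each), and Cacna2d2 and Pip5k1c (0.89 each). Their own differences were small, from 0.13 for Pip5k1c to 0.38 for Panx1. Dnah1 (5.64 to 6.11), Ccdc30 (5.88 to 6.34) and Cacna2d2 (5.67 to 6.05) read close to the brightness limit of 5.82. The genes most like Trem2 were Slc37a2, a sugar phosphate transporter of macrophages (r = 0.95), Lilrb4a, an inhibitory receptor of myeloid cells (0.93), and Nceh1, a neutral cholesterol ester hydrolase (0.93). Slc37a2 read 8.42, 7.85, 8.21 and 7.80 in GC+ mice and 7.14, 7.11, 8.06 and 7.02 in GC- mice, a difference of 0.74 ± 0.25. As with Trem2, GC- mouse 3 lay within the GC+ range and the other GC- mice below it. Within groups the r of Trem2 was 0.91 with Slc37a2, 0.87 with Lilrb4a and 0.88 with Nceh1.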

How the data were processed

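Expression was measured on 8 arrays, 4 GC+ and 4 GC-, from 100 ng of RNA each, per the labels' protocols. The deposited values are log2 expression values that the authors made with Expression Console (Affymetrix) by robust multiarray averaging, RMA, per the labels. RMA makes array distributions equal, compresses low signals and removes shifts common to all genes. The submitters' processing notes also name Partek 6.6 without saying what it did; the genome build of the probe sets is not given in the sources used here. Of 41345 probe sets, 23521 had 1 symbol in GEO's platform annotation, 1814 several and 16010 none, and 23328 matched RefSeq GRCm38.p6 by Entrez identifier. The brightest probe set stood for each of 22180 genes, and the dimmest 33.3% (below 5.82) were left out.

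Groups were compared with limma 3.58.1 (R 4.3.3; lmFit, eBayes, no covariate or block) over 14787 genes, with Benjamini-Hochberg adjustment. Replicates are biological per the labels. The members and lists were chosen with earlier results of these data known. Named genes were the members, fixed defining genes, the 3 lowest p-values per list and the genes most alike. Correlations used exact permutations within groups (Python 3.11.15, scipy 1.17.1); figures used matplotlib 3.10.9. Both scripts were tested on simulated data. Alternatives changed the brightness filter, normalization, probe set choice, variance model, array weights and replicate block, and left out each mouse; those on epididymal RNA were added after seeing the data.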

Additional observations from a re-analysis of the deposited data

Results flagged for a closer look

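Lgals3 in GC+ mouse 3, at 9.31, stood apart from the other 3 GC+ mice, which read 8.76 to 8.84. Its gap to the next mouse was 0.87 of the group's range, above the 0.829 that Dixon's rule sets for 4 samples. Among the 24 groups of 4 checked, over 9 members and 3 list scores, it was the 1 group past that limit, and chance passes about 1 in 20. The same mouse was highest for Tm4sf19 (7.98) and lowest among GC+ mice for Itgax (6.90), and the Lgals3 difference was 0.51 without it.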

How the results depend on the processing

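With limma, 0 genes passed the adjusted threshold under all 17 alternatives, and 842 had an unadjusted p under 0.05 in the reported fit. That last count moved by over 1.5 times when single mice were left out: to 436 without GC- mouse 4, 534 without GC+ mouse 4, 557 without GC+ mouse 3, 1268 without GC- mouse 3 and 1590 without GC- mouse 2. It was 1980 with array weights, 1328 with the epididymis score as a covariate and 497 without the 3 mice of high score, and 3 to 6 of the 9 members were in these counts. The count of members with a higher GC+ mean was 8 or 9 of 9 when each mouse was left out in turn, and 7 without the 3 mice of high epididymis score. The median difference of the members ran from 0.45 (without GC- mouse 4) to 0.74 (without GC- mouse 3) over the 8 fits without 1 mouse, was 0.79 with array quality weights, and was 0.41 without the 3 mice of high epididymis score, a fit with 3 GC+ and 2 GC- mice. Of 153 member differences over the alternatives, 4 were below 0: Cd9 without GC+ mouse 2 (-0.07), without GC- mouse 2 (-0.01) and without the 3 mice of high epididymis score (-0.04), and Cd63 in the last of these fits (-0.00 after rounding). Tyrobp ran from 0.02 to 0.64, with 0.61 under array weights, which favour GC+ mouse 1 (2.06) and GC- mouse 4 (2.01). The cause of these shifts was not tested. No pairing of mice by replicate number was seen. Deviations of same-numbered mice correlated between -0.58 and 0.13, and 0 of 4 GC+ mice matched their own number best. Large differences between single mice could hide a pairing, so it is not excluded. With the replicate block 0 genes passed, 504 genes had an unadjusted p under 0.05 and 9 members were higher, with a median of 0.63. With 4 arrays per group the number of mice, and for dim genes the signal over background, limits what can be seen.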

Other observations

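Cell cycle genes set GC- mouse 3 apart from the others. This mouse had the highest general macrophage score. It also had the highest mesothelial (0.85), mast cell (0.79), resident macrophage (0.52) and progenitor (0.40) scores, but not the highest adipocyte (-0.08) or endothelial (0.29) score. Mki67, a marker of dividing cells, read 10.68 in that mouse and between 7.29 and 8.37 in the other 7, and Top2a, the topoisomerase of dividing cells, read 9.26 against 5.80 to 7.12. Trem2 at 8.20 and Tyrobp at 9.71 were highest of the GC- mice there, while Mmp12 at 7.42 was lowest, and whether the dividing cells were macrophages was not tested.

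Among genes of the macrophage lists, Atp6v0d2, a proton pump subunit of osteoclasts and macrophage lysosomes named after its value was seen, had a difference of 1.11 ± 0.56 (limma adjusted p = 0.768), above that of every member but with overlapping groups. Chil3, a lectin of monocytes and alternatively activated macrophages, averaged 6.76 ± 1.06 in GC+ and 5.24 ± 1.12 in GC- mice (1.52 ± 0.66, limma adjusted p = 0.768), with overlapping groups. Plac8, a monocyte marker, read 9.41 and 8.52 in GC- mice 1 and 4 and between 5.22 and 6.97 in the other 6 mice. GC- mice 1 and 4 had high epididymis scores, as had GC+ mouse 2, whose Plac8 value was 6.97. Single epididymis genes differed among these mice. Spag11a read 12.51 and 11.91 in GC- mice 1 and 4 and 8.84 in GC+ mouse 2, and Lcn10 read 7.73 and 6.26 against 12.16. Whether epididymal RNA bears on the Plac8 values was not tested.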
